A study of Mus musculus with 60 samples.

Results

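The genes described here encode the receptors for glutamate and the proteins that travel with them to the synapse. They are 38 genes, taken by name: 4 AMPA receptor subunits, 5 kainate receptor subunits, 7 NMDA receptor subunits, 1 delta receptor, 7 metabotropic receptors, 6 transmembrane AMPA receptor regulatory proteins (TARPs), 2 cornichons, 2 NETO proteins and 4 MAGUK scaffolds. A peak, a stretch of DNA recovered with an antibody, belonged to a gene when the deposited annotation gave it that gene's symbol. Of the 38 genes, 36 had at least 1 peak, and their 1716 peaks were drawn from all 12 peak lists of the series.

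Glutamate is the main excitatory transmitter of the hippocampus. AMPA receptors carry the fast current, NMDA receptors open only when the membrane is already depolarised and let in calcium, kainate receptors modulate release and excitability, and metabotropic receptors signal through G proteins. Auxiliary subunits and scaffolds set how many receptors sit at a synapse and how fast they close. H4K8ac, acetylation of lysine 8 on histone H4, lies at active genes, and H3K27me3, trimethylation of lysine 27 on histone H3, lies at genes held silent by Polycomb complexes.

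Nuclei came from the hippocampus of male Emx1-NuTRAP mice, the offspring of Emx1-IRES-Cre knock-in and NuTRAP reporter mice, in which Cre under the Emx1 locus tags nuclei and ribosomes, mostly in excitatory forebrain neurons. Exercised mice had free access to a running wheel from postnatal day 21 to 41 and sedentary mice did not, and both carried the same 2 alleles. In the SIT arm (simultaneous INTACT and TRAP) nuclei and ribosome-bound mRNA were purified side by side from the combined hippocampi, and in the left separate and right separate arms nuclei alone were purified from 1 side. Of 60 samples, 20 were IgG controls, which are not used here, and each mark had 4 samples of either condition in SIT and 3 in either separate arm. Exercised H4K8ac rests on fewer samples than that, because the authors left out libraries with a high false discovery rate in SIT and, more of them, in the separate isolations, of which the side is not given in the sources used here. The authors' figure caption also gives fewer mice than samples for the SIT peaks of both marks, in either condition. CUT&RUN-seq peaks were available as 1 list per mark, condition and arm. A list pools its samples and holds positions without signal, so depth and the spread between replicates are unknown, and each arm gave a single pair of lists to compare.

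List lengths set much of what could be compared. H4K8ac lists held from 12168 peaks (exercised left) to 38136 (exercised SIT), and H3K27me3 lists from 9899 (exercised right) to 25693 (exercised SIT). As a check of the labelled cell type, 4 to 7 of 7 excitatory neuron markers had an H4K8ac peak in a list, against 1 to 3 of 7 interneuron markers and 0 or 1 of 5 microglial markers. H3K27me3 peaks were found at 4 to 6 of 7 interneuron markers and at 2 or 3 of 7 excitatory ones. Emx1 itself had H4K8ac in 6 of 6 lists and H3K27me3 in 5. Among the interneuron genes, H4K8ac was listed at Dlx2 in 6 lists, Sst in 4 and Gad1 in 2, and at Gad2, Slc32a1, Dlx1 and Lhx6 in none. Astrocyte markers had H4K8ac at 1 to 6 of 6 genes and oligodendrocyte lineage markers at 1 to 3 of 5, with Mbp listed in 6 lists and Mog in 4 and neither with H3K27me3. These do not belong to the labelled cell type, and the part of other cell types in the results below was not tested.

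Counted over all lists by assigned symbol, H4K8ac alone was found at 22 genes, H3K27me3 alone at 6 (Grik1, Grin2c, Grin2d, Grin3b, Grm6 and Cacng4), and both at 8 (Gria4, Grik3, Grin3a, Grm4, Grm8, Cacng2, Neto1 and Dlg1). The same split over all protein-coding genes is not given here. By position, no H3K27me3 peak lay over the gene body at Gria4, Grin3a, Cacng2, Neto1 and Dlg1. At Grin2d, H4K8ac peaks assigned to Kdelr1 or Grwd1 lay over the gene body in exercised SIT and sedentary left. Grin1 and Cacng5 had no peak under their own symbol. H4K8ac reached 30 of the 38 genes (78.9%) in at least 1 of its 6 lists, where 52% of all protein-coding genes did, and 11 genes (28.9%) in all 6, where 12.4% did. H3K27me3 reached 14 genes (36.8%) in at least 1 list, against 28.1% of protein-coding genes, and 6 genes (15.8%) in all 6, against 10.7%.

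Length moved with these shares. The receptor genes are long, with a median of 117 kb against 17.4 kb for all protein-coding genes (GENCODE M21 on GRCm38), and 55.3% of them span at least 100 kb. Among genes of that length, 84.6% of all protein-coding genes and 20 of 21 members (95.2%) had an H4K8ac peak in some list. For H3K27me3 the shares at that length were 41.7% and 38.1% (8 of 21). The part of length in the family's shares was not otherwise tested.

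**Figure D1:**
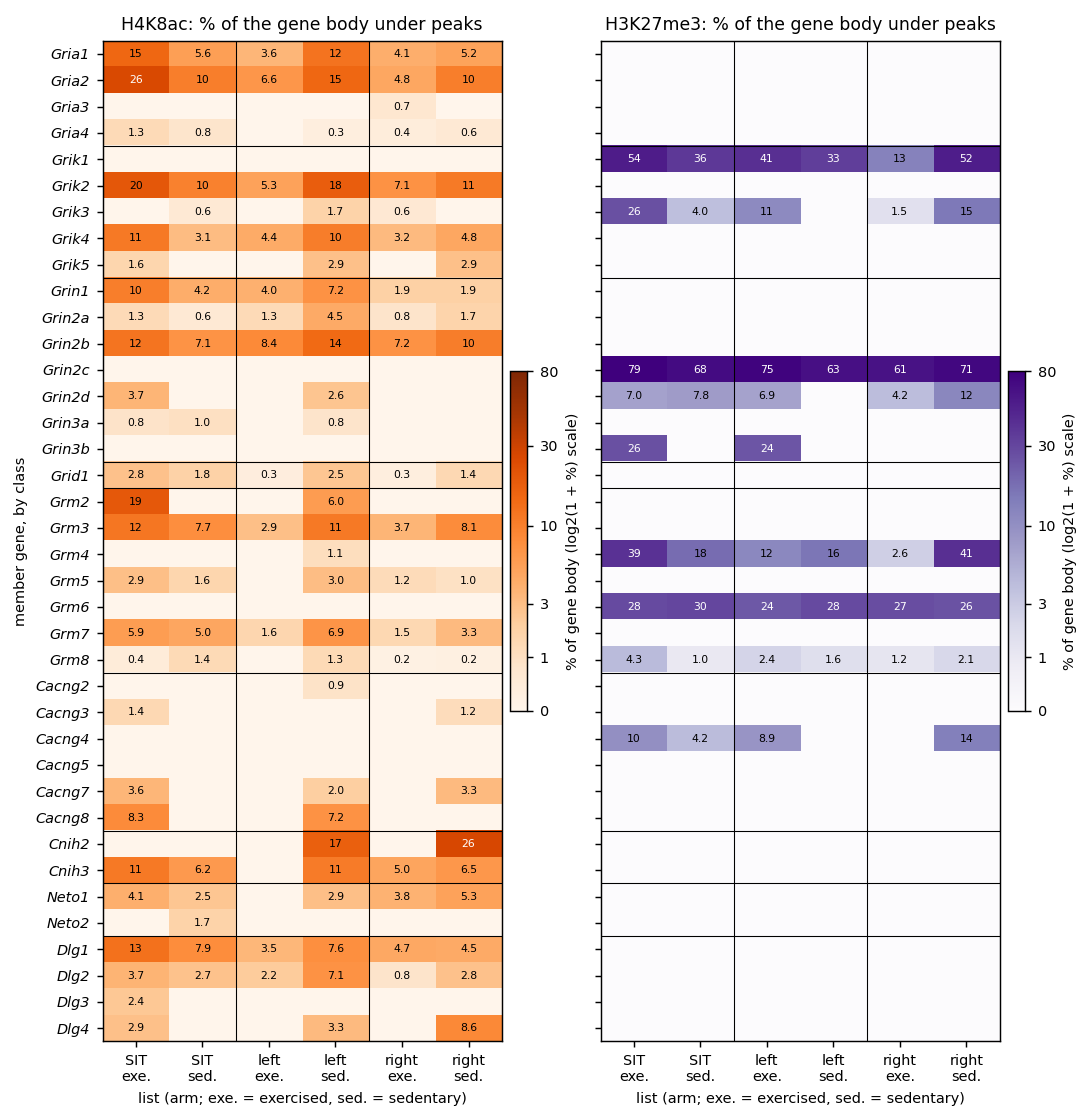
Share of each gene body under peaks in each list, in percent, for H4K8ac (left panel, orange) and H3K27me3 (right panel, purple). Rows are the 38 genes by class, columns the exercised and sedentary list of each arm, colour is on a log2(1 + %) scale and empty cells are 0. H3K27me3 covered 60.6 to 79.3% of Grin2c and 12.9 to 53.5% of Grik1 in every list, while H4K8ac reached 25.5% of Gria2.

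AMPA receptor subunits carried H4K8ac and almost no H3K27me3. Gria2 encodes the subunit whose edited form blocks calcium entry, and Gria1 the subunit that is inserted during potentiation. For Gria2 the H4K8ac peaks covered 116 kb in exercised SIT, 43.8 kb in exercised left and 28.6 kb in exercised right, and 58.2, 94.3 and 72.9 kb in the sedentary lists of the same arms. For Gria1 the exercised values were 76.4, 16.7 and 14.3 kb and the sedentary ones 32.1, 65.7 and 30.7 kb, in the same order. Both genes were higher in the exercised list of SIT and lower in the exercised lists of the separate arms, and the ranges of the conditions overlapped. Per Mb covered by the list, the order turned for Gria2 in the left arm (1700 against 1430 bp) and for Gria1 in the right arm (584 against 548 bp). Gria3, on the X chromosome, had 1 peak in sedentary SIT and 1 in exercised right. Gria4 had 1 to 3 H4K8ac peaks in 4 of 6 lists, and its 1 H3K27me3 peak (2.09 kb, exercised SIT) was the only one of that mark in the class.

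Most of the Gria2 signal lay far from its start. Of its 173 peaks over all lists, 125 were distal intergenic, 24 intronic and 5 at a promoter, and 92.4% of the gene body bases under a peak of some list were in the distal 50% of the gene. Gria1 was alike in this, with 82% in the distal 50% and no promoter peak, whereas the median protein-coding gene of at least 100 kb had 49.1% there. The start of Gria2 was inside an H4K8ac peak in exercised SIT, exercised right and both sedentary separate lists. Its promoter and the middle of a distal intergenic region found in all 6 lists are shown because they are the near and the far kind of H4K8ac position with this symbol. The far region lay 380211 bp from the start, beyond the 3' end of the 121 kb gene, and is tied to Gria2 by annotation alone. In the sequences below CpG dinucleotides, the sites of DNA methylation, are in capitals. Promoter letters are the 150 bases before the RefSeq start on the gene's strand, and others are read on the plus strand, all in GRCm38.p6 from RefSeq.
Gria2 promoter, chr3:80802836-80802985, minus strand, overlapped by H4K8ac in 4 of 6 lists and covered whole in 3, 15 CpG: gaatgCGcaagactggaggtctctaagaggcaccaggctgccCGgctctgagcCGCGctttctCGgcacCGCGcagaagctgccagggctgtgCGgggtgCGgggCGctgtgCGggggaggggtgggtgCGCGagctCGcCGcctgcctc
Gria2 distal intergenic region, chr3:80421243-80421392, under H4K8ac in 6 of 6 lists, 2 CpG: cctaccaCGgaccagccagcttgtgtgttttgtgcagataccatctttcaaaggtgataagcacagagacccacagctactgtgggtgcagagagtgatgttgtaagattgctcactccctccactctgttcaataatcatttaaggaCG

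Kainate receptor subunits divided between the marks. Grik1, which encodes GluK1, a subunit of interneurons in the adult hippocampus, had no H4K8ac peak in any list and the widest H3K27me3 of the family. Its peaks covered 325, 261 and 72 kb in the exercised SIT, left and right lists and 226, 209 and 304 kb in the sedentary ones. The exercised right list was the lowest of the 6 by a wide margin, and it was also the shortest of the H3K27me3 lists. The widest peak of any member, 64.4 kb at chr16:88219316-88283710 in sedentary right, lay in an intron of Grik1. Of its 36 merged regions 9 were present in all 6 lists, and the largest stretches shared by all lists in each added up to 33 kb. The largest such core (10.6 kb, chr16:88285135-88295759) spanned the annotated start of the gene, and its central 150 bases are shown because every H3K27me3 list covered them.
Grik1 core, chr16:88290373-88290522, under H3K27me3 in 6 of 6 lists, 11 CpG: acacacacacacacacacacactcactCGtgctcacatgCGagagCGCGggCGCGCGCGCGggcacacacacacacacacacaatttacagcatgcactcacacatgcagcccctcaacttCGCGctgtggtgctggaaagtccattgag

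Grik2 and Grik4, subunits of principal cells, had the opposite pattern, with H4K8ac in all 6 lists and no H3K27me3. Grik2 had 59, 23 and 28 peaks in exercised SIT, left and right and 47, 67 and 40 in the sedentary lists, covering from 38.4 kb (exercised left) to 148 kb (exercised SIT). Grik4 covered from 8.41 kb (sedentary SIT) to 35 kb (exercised SIT), and 28 further peaks over its gene body were assigned to Tbcel. Their covered bases were higher in exercised SIT than in sedentary SIT and lower in exercised than in sedentary mice on either side. Per Mb covered by the list, however, Grik4 was higher in exercised mice in all 3 arms (436 against 181, 553 against 430 and 448 against 277 bp in SIT, left and right) and Grik2 in the right arm (2020 against 1520 bp). Grik5 had 1 intronic H4K8ac peak in sedentary left and 1 in sedentary right, and none by symbol in the exercised lists. Grik3, the GluK3 subunit, had both marks: 6 of 6 H3K27me3 lists, covering 21.1 to 73.1 kb, and 5 of 6 H4K8ac lists, covering 3.36 to 10.4 kb. All 15 H4K8ac peaks with its symbol were distal intergenic. Over its gene body lay 4 more H4K8ac peaks, 2 with no symbol and 2 assigned to 2610028E06Rik, and 30 more H3K27me3 peaks with no symbol and 2 assigned to Ftl2-ps. With these included, the nearest peaks of the marks were 7.6 to 117 kb apart in the 6 list pairs.
Grik2 promoter, chr10:49788755-49788904, minus strand, overlapped by H4K8ac in 5 of 6 lists and covered whole in 3, 15 CpG: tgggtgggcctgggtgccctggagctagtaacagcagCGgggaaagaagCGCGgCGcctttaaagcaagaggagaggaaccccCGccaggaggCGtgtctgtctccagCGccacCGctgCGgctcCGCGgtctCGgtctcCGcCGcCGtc
Grik3 promoter, chr4:125490546-125490695, plus strand, covered whole by H3K27me3 in 4 of 6 lists, 26 CpG: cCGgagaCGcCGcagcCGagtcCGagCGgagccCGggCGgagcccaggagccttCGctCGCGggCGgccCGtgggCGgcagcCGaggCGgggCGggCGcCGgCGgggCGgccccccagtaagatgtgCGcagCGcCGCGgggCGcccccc
These 2 promoters are set side by side because genes of the same class carried opposite marks there, and both are rich in CpG.

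NMDA receptor subunits showed how much the assignment of a peak to a gene matters. Grin1 encodes the obligatory GluN1 subunit and had no peak under its symbol, yet H4K8ac peaks lay over its gene body in all 6 lists, covering 1.89 to 10.2% of its 28 kb. Those peaks had been assigned to the antisense gene Grin1os or to the neighbour Lrrc26. Grin2b, the GluN2B subunit of the young brain, had only 2 or 3 H4K8ac peaks per list by symbol, from 3.39 kb (exercised right) to 10.4 kb (sedentary left). Over its gene body, however, lay 126 further peaks in the 6 lists together that were assigned to 4930425L21Rik, a neighbour that starts beyond its 3' end, and H4K8ac covered 7.06 to 14.1% of its 460 kb. Nearly all of these bases (96.5%) were in the distal 50% of the gene. Grin2a, the GluN2A subunit of mature synapses, had H4K8ac in 6 of 6 lists, from 5.57 kb (sedentary SIT) to 20.7 kb (sedentary left), and 30 of its 33 separate regions were found in 1 list only.
Grin2b intergenic region upstream of the start, chr6:136240547-136240696, under H4K8ac in 6 of 6 lists, 0 CpG: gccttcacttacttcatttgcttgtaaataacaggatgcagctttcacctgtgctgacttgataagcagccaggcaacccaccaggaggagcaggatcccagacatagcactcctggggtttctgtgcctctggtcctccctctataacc
This is the only stretch of the Grin2b symbol's peaks that every H4K8ac list shared, within a core of 891 bp.

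Grin2c, Grin2d and Grin3b, subunits known from cerebellum, interneurons and motor neurons, carried H3K27me3. Grin2c was the most completely covered gene of the family, with 79.3, 74.7 and 60.6% of its 18.1 kb under H3K27me3 in exercised SIT, left and right and 67.6, 63.2 and 71.1% in the sedentary lists. Its start was inside an H3K27me3 peak in all 6 lists. By symbol, its covered bases were 16.1, 15.7 and 12.2 kb in the exercised lists and 0, 13.2 and 1.45 kb in the sedentary ones, because the sedentary SIT peak (14126 bp) and the sedentary right peak (13530 bp) over the same place had been assigned to the neighbouring gene Fdxr. Grin2d had 1 or 2 H3K27me3 peaks in 5 of 6 lists, covering 1.93 to 5.54 kb where present. It had no H4K8ac by symbol, but H4K8ac peaks assigned to Kdelr1 or Grwd1 lay over its gene body in exercised SIT and sedentary left. Grin3b had a promoter peak of 1.88 kb in exercised SIT and of 1.61 kb in exercised left, and no peak of either mark in any other list. Grin3a had H4K8ac peaks in 4 lists and H3K27me3 peaks in 4, and no list pair had them closer than 18.3 kb.
Grin2c promoter, chr11:115267244-115267393, minus strand, covered whole by H3K27me3 in 6 of 6 lists, 11 CpG: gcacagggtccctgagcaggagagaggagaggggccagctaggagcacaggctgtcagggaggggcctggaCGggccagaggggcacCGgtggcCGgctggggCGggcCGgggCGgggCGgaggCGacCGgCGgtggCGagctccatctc

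**Figure D2:**
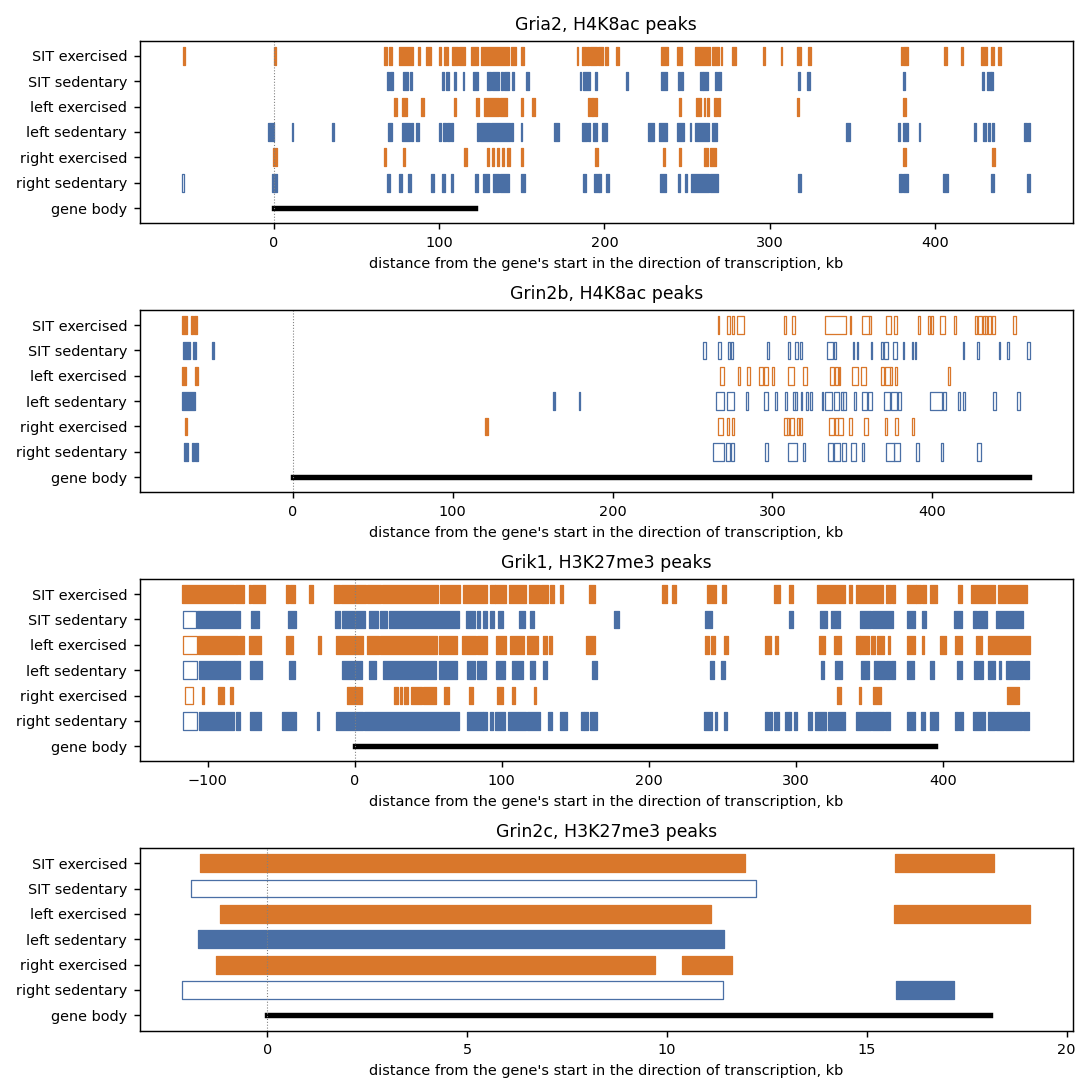
Peaks along Gria2 and Grin2b (H4K8ac) and Grik1 and Grin2c (H3K27me3), by distance in kb from the gene's start in the direction of transcription, with 1 row per list, exercised in orange and sedentary in blue. Filled boxes were assigned to the named gene, open boxes to another gene, and the black bar is the gene body. Open boxes fill the distal part of Grin2b in every list, and the sedentary SIT and right peaks over the start of Grin2c are open.

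Grid1, the delta receptor that binds cerebellins rather than opening to glutamate, had H4K8ac in 4 of 6 lists and no H3K27me3. It had 4 peaks in exercised SIT and, in sedentary mice, 2 in SIT, 5 in left and 1 in right, and none by symbol in either exercised separate list. A further 28 H4K8ac peaks over its 763 kb gene body carried the symbol Mir346, a microRNA gene inside it, and 1 of these lay in each of the exercised separate lists.

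Metabotropic receptors split by subtype. Grm3 and Grm7, receptors that dampen transmission through inhibitory G proteins, had H4K8ac in 6 of 6 lists. Grm7 covered 85.4, 21.9 and 30.8 kb in exercised SIT, left and right and 62.5, 86.2 and 43.4 kb in the sedentary lists, and none of its 101 regions was found in all 6. Grm3 covered 28.1, 6.94 and 7.2 kb against 16.5, 20.5 and 14.6 kb. As for Gria1 and Gria2, the exercised value was the higher one in SIT and the lower one on either side. Per Mb covered by the list this turned in SIT (Grm7 1060 against 1350 bp, Grm3 350 against 356 bp) and in the right arm (1260 against 773 and 294 against 260 bp). Grm5, which signals through phospholipase C, had 1 to 5 H4K8ac peaks in 5 lists and none in exercised left. Grm2, a presynaptic receptor with 6 of its 8 peaks at a promoter, was listed in exercised SIT and in all 3 sedentary lists.

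Grm6, Grm4 and Grm8 carried H3K27me3 in all 6 lists. Grm6, the receptor of retinal ON bipolar cells, had exactly 1 peak in each list, over its start, of 7.02, 6.63 and 7.33 kb in the exercised SIT, left and right lists and 7.61, 7.32 and 7.98 kb in the sedentary ones. Its width thus changed little between lists, with a shared core of 6.28 kb at chr11:50848085-50854361. Grm4 ranged from 2.62 kb (exercised right) to 47.5 kb (sedentary right), and had 1 H4K8ac peak, in sedentary left. Grm8 covered 30.6, 15.7 and 11.5 kb of H3K27me3 in the exercised lists and 8.28, 13.7 and 13.5 kb in the sedentary ones, and had H4K8ac by symbol in 1 exercised and 2 sedentary lists. A further 15 H4K8ac and 12 H3K27me3 peaks over its gene body were assigned to Mir592. Likewise 23 H4K8ac peaks over Grm3 carried the symbol Elapor2 and 17 over Grm5 the symbol Ctsc. The promoters of Grm6 and Grm8 are shown, because the mark was at both although that of Grm6 has almost no CpG in this window. The whole shared core at Grm6 held 23.7 CpG per kb.
Grm6 promoter, chr11:50850535-50850684, plus strand, covered whole by H3K27me3 in 6 of 6 lists, 1 CpG: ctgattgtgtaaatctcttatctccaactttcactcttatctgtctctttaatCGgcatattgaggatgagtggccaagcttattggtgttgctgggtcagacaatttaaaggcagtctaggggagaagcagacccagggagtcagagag
Grm8 promoter, chr6:28135147-28135296, minus strand, overlapped by H3K27me3 in 4 of 6 lists and covered whole in 2, 24 CpG: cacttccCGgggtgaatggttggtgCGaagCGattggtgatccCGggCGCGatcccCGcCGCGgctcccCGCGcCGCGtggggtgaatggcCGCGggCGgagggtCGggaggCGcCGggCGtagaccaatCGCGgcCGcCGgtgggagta
Grm3 intronic region, chr5:9579638-9579787, under H4K8ac in 6 of 6 lists, 3 CpG: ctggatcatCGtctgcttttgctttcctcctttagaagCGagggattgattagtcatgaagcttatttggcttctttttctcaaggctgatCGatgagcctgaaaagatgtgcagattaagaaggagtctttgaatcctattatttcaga
The Grm3 stretch is the centre of the 2.63 kb that every H4K8ac list had in common at that gene.

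TARPs, which carry AMPA receptors to the membrane and slow their closing, had few peaks. By symbol, Cacng8 (gamma-8, the hippocampal TARP) had 2 H4K8ac peaks in exercised SIT and 1 in sedentary right, and its neighbour Cacng7 had 1, in sedentary left. By position, 1 of the 2 exercised SIT peaks and the sedentary right peak lay over Cacng7, so Cacng7 was under H4K8ac in 3 lists, and Cacng8 in exercised SIT and, with a peak assigned to Gm23450, in sedentary left. Cacng3 had 1 peak each in exercised SIT, sedentary left and sedentary right. Cacng2 (stargazin) had H3K27me3 assigned to it in 5 of 6 lists, 1.43 to 8.53 kb, but none of it lay over its gene body, and 1 H4K8ac promoter peak in sedentary left, 14.5 kb from the nearest H3K27me3 peak of its list pair. Cacng4 had H3K27me3 by symbol in all 6 lists, with 47.7, 45.2 and 22.2 kb in exercised SIT, left and right and 29.6, 27.8 and 49 kb in sedentary mice. No H3K27me3 lay over its gene body in sedentary left or exercised right, and its core shared by all lists was upstream of the gene body. Cacng5, its neighbour on chromosome 11, had no peak of either mark, by symbol or over its gene body.

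Among the other auxiliary proteins, the cornichon Cnih3 had H4K8ac in 6 of 6 lists, 1.41 kb (exercised left) to 8.94 kb (sedentary left), with 9 more peaks over its gene body assigned to Ccdc121, whereas Cnih2, the cornichon of hippocampal AMPA receptors, had 1 promoter peak each in sedentary left and sedentary right. Neto1, a partner of kainate receptors, had 5 to 8 H4K8ac peaks in 5 lists and none in exercised left, and Neto2 had 1, in sedentary SIT. Scaffolds of the postsynaptic density were led by Dlg2 (PSD-93), with 38, 22 and 10 H4K8ac peaks in the exercised SIT, left and right lists and 38, 90 and 30 in the sedentary ones, and by Dlg1 (SAP97), with 25.9, 7.44 and 9.91 kb against 14.7, 16 and 9.62 kb. Dlg4 (PSD-95) had 1 promoter peak each in exercised SIT, sedentary left and sedentary right, and Dlg3 (SAP102) had 1, in exercised SIT. Dlg1 also had H3K27me3 in 4 lists, on 2 regions, and its marks were 33.3 to 91 kb apart in the 4 list pairs that held both.
Dlg2 internal promoter, chr7:91090636-91090785, plus strand, covered whole by H4K8ac in 5 of 6 lists, 2 CpG: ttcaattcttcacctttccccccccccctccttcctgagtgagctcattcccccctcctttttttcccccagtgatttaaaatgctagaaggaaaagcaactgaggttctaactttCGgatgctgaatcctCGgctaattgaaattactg
The stretch is shown because it was missed in sedentary right alone, and an internal promoter of Dlg1 (chr16:31754100-31754399) was overlapped in every H4K8ac list. The annotated starts of Dlg2 and Dlg1, which lie upstream, were inside a peak in 3 and 0 of 6 lists.

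**Figure D3:**
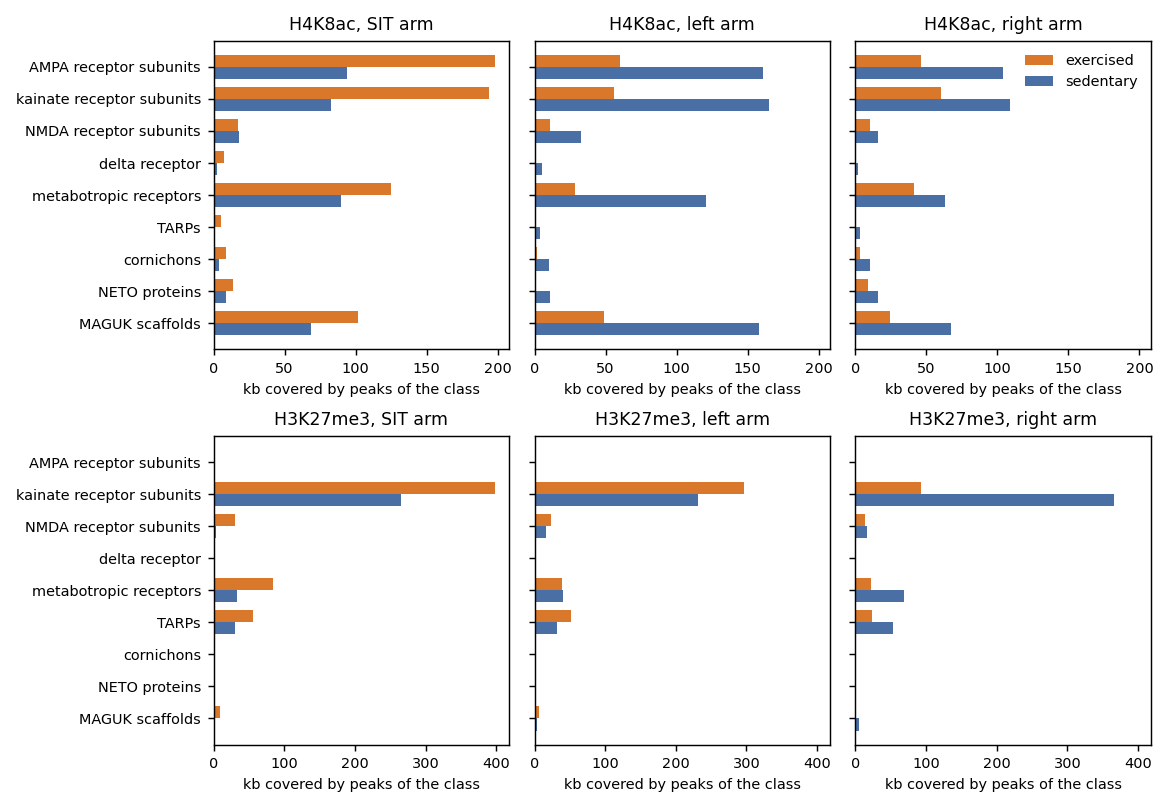
Covered bases of each class, in kb, in exercised (orange) and sedentary (blue) mice, by mark (rows, each with its own horizontal scale) and arm (columns); bars are sums over the genes of the class in 1 list, with no error. AMPA subunits had 198 against 93.9 kb of H4K8ac in SIT and 60.5 against 161 kb in the left arm, and kainate subunits held most of the family's H3K27me3.

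Set side by side, the classes differed in the mark they carried. Kainate subunits held 93.1 to 398 kb of H3K27me3 per list, all of it from Grik1 and Grik3, and 56 to 194 kb of H4K8ac. AMPA subunits held 46.1 to 198 kb of H4K8ac and at most 2.09 kb of H3K27me3. NMDA subunits had 10 to 32.6 kb of H4K8ac by symbol, a value that leaves out what lay over Grin1 and most of what lay over Grin2b. TARPs had 0 to 5.04 kb of H4K8ac and 23.6 to 56.2 kb of H3K27me3 by symbol, part of it outside the gene body of Cacng4 and all of it outside that of Cacng2. Delta receptor and cornichon genes had no H3K27me3 peak in any list.

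Positions within genes differed from the lists as a whole. Of the members' 1339 H4K8ac peaks 60.6% were intronic, where 37.4% of all H4K8ac peaks were, and 7.54% were at promoters, where 23.5% were. Distal intergenic peaks made up 25.2% against 28.3%. Their 377 H3K27me3 peaks were 17% promoter and 36.6% intronic, against 20.3 and 20.5% of all H3K27me3 peaks. Peak widths were close to the lists', with a median of 1.53 kb against 1.62 kb for H4K8ac and 3.72 kb against 3.27 kb for H3K27me3. Peaks of a gene share a locus and are not independent, so these shares are descriptions without a test.

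Base composition differed as well. Under the members' H4K8ac peaks there were 6.83 CpG per kb, fewer than the 12.5 per kb under all H4K8ac peaks and the 8.34 per kb of chromosomes 1 to 19 and X. H3K27me3 peaks of the members had 10.9 per kb and all H3K27me3 peaks 11 per kb. RefSeq promoter windows (250 bases before to 50 after a start, GRCm38.p6) were matched for 27 of the 38 genes, in 40 windows. A GC box (GGGCGG on either strand) was present in 19 of the 40 (47.5%) and in 35.7% of all 32851 windows, and the cAMP response element TGACGTCA in 0 of 40 and in 1.79% of all. The median window held 12 CpG against 7 (a CG within either motif is counted as CpG too). H4K8ac peaks in at least 1 list overlapped 17 windows, with a median of 11 CpG, H3K27me3 peaks overlapped 7, with a median of 10, and 16 windows without a peak had 16.5. No window was under both marks.

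Start sites were seldom covered. An H4K8ac peak contained the annotated start of 11 members in exercised SIT (28.9%, against 18.5% of all protein-coding starts), 0 in exercised left (4.74% of all) and 2 in exercised right (5.26%, against 5.89%). In sedentary mice it was 1 in SIT (2.63%, against 7.54%), 4 in left (10.5%, against 13%) and 6 in right (15.8%, against 11.1%). The 11 starts in exercised SIT were those of Gria2, Gria4, Grik2, Grin3a, Grm3, Grm7, Cacng3, Cacng8, Neto1, Dlg2 and Dlg3, and the only one of them also covered in sedentary SIT was Grm7. H3K27me3 peaks contained 8, 6 and 4 starts in exercised SIT, left and right (background 10.4, 8.05 and 4.99%) and 5, 4 and 7 in the sedentary lists (7.19, 7.33 and 9.75%). Grik1, Grin2c and Grm6 were covered there in every list.

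Exercise was compared with sedentary housing within each arm, first by whether a gene was listed at all. In SIT, 4 members had H4K8ac in exercised mice only (Cacng3, Cacng8, Dlg3 and Dlg4), 3 in sedentary mice only (Gria3, Grm8 and Neto2) and 18 in both, so that 16% were gained where 28.2% of listed protein-coding genes were, and 12% lost where 9.93% were. By promoter peaks alone 11 of 16 members were gained (68.8%, against 44.2% of genes) and 0 lost (12.1% of genes) in SIT, and by gene body 8 of 28 were gained (28.6%, against 35.2%) and 2 lost (7.14%, against 9.85%). In the left arm 0 members were gained (3.55% of genes were) and 14 of 26 were lost (53.8%, against 52.1%). In the right arm Gria3, Gria4 and Grm8 were gained (12%, against 9.28%) and 9 members lost (36%, against 36.6%). Grik5, Grin3a, Grid1, Grm2, Cacng3, Cnih2 and Dlg4 were lost on both sides, which is 7 of 28 members listed in the separate arms (25%, against 13.2% of genes). Of these 7 genes, Cacng3 and Dlg4 were gained in SIT. Each of the 7 had 1 to 5 peaks where it was listed in a separate arm, so a call turned on few peaks. With the lists of an arm reduced to equal numbers of peaks, 4 of 16 rather than 14 of 26 members were lost in the left arm (25%, against 24% of genes) and 5 of 21 rather than 9 of 25 in the right arm (23.8%, against 21.6%). Grm2 was then the only member lost on both sides. By gene body, the members lost on both sides were Grik5, Cacng7, Cnih2 and Dlg4. Losses on both sides over all genes are not given for these alternatives.

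For H3K27me3, the counts by symbol were as follows. In SIT 7 members were gained (Gria4, Grin2c, Grin3a, Grin3b, Cacng2, Neto1 and Dlg1; 50%, against 41.3% of genes) and 0 were lost (0.976%). In the left arm Grin2d, Grin3b and Neto1 were gained (23.1%, against 18.4%) and 0 lost (9.17%). In the right arm 0 were gained (2.87%) and Grin3a and Dlg1 were lost (18.2%, against 43.9%). At equal numbers of peaks the left arm had 1 of 11 gained and 1 lost (9.09% each, against 13.6 and 14.8% of genes), and by gene body SIT had 1 of 9 gained (11.1%, against 36.9%). By symbol and with all peaks, Grin3b and Neto1 were thus gained in SIT and left (2 of 14 members listed in these arms, 14.3%, against 8.55% of genes), and in the right arm neither was listed in either condition. At equal numbers of peaks neither was gained in SIT or left, and the H3K27me3 peaks of Neto1 were all distal intergenic. Grin2c in SIT is a gain by symbol only, since 1 of its 2 exercised peaks overlapped the sedentary peak assigned to Fdxr. Of the 33 gains and losses of H4K8ac 6, and of the 12 of H3K27me3 1, had a peak of the other condition over the same gene body.

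**Figure D4:**
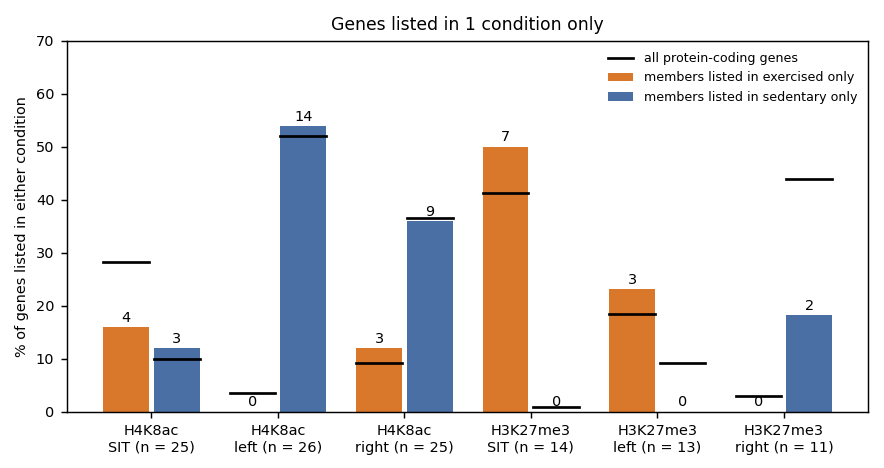
Members listed in the exercised list only (orange bars) or the sedentary list only (blue bars) of an arm, as a percent of the members listed in either (n under each pair), with the number of genes above each bar; black lines give the same share for all protein-coding genes. Losses of H4K8ac in the left and right arms (14 and 9 members) sit beside the lines at 52.1 and 36.6%.

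Covered bases followed the lists. The members' H4K8ac bases in exercised mice were 1.82 times those in sedentary mice in SIT, 0.311 times in the left arm and 0.497 times in the right arm, where whole lists gave 1.73, 0.391 and 0.437. For H3K27me3 the ratios were 1.75, 1.29 and 0.3, where whole lists gave 1.88, 1.25 and 0.36. In each arm and mark the family moved the same way as all peaks together, and the size of a list and the condition cannot be told apart here. The authors left out exercised H4K8ac libraries, more of them in the separate isolations than in SIT, and which samples each list holds is not given in the sources used here. The part of this in the ratios was not tested.

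**Figure D5:**
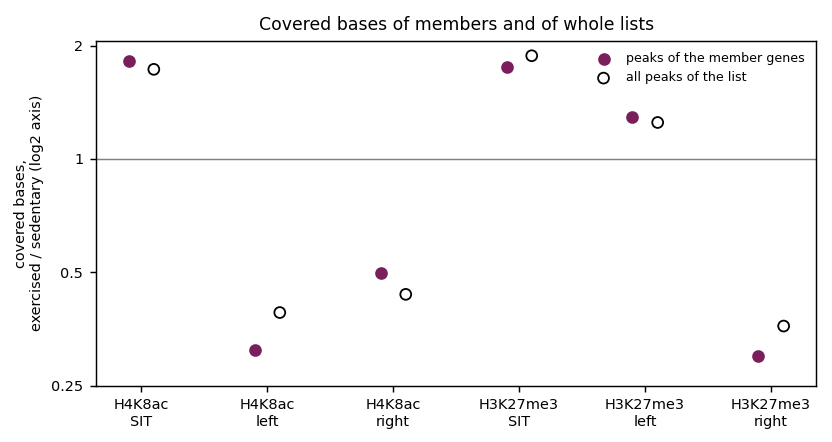
Covered bases in exercised over sedentary mice, for peaks of the member genes (filled) and for all peaks of a list (open), by mark and arm, on a log2 axis with a line at 1. Members and lists lie on the same side of the line in all 6 pairs, with H4K8ac at 1.82 in SIT and 0.311 in the left arm.

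Few members changed one way in all 3 arms. For H4K8ac 0 of 30 listed members had more covered bases in exercised mice in every arm (1.12% of genes did) and 2, Grin2b and Grin3a, had fewer (6.72%). For H3K27me3 1 of 14, Grin2c, had more (1.32%) and 1, Grm6, had fewer (2.27%). Per Mb covered by the list, Grin3a kept its direction, while Grin2b turned in the right arm (138 against 119 bp), Grin2c in the left arm (170 against 178 bp) and Grm6 in the right arm (178 against 69.7 bp). On that scale Grik4 and Dlg1 had more H4K8ac in every arm, Dlg2 had less, and Cacng2 had more H3K27me3. No share over all genes is given on that scale. The differences, exercised minus sedentary in SIT, left and right, were -1680, -6654 and -3296 bp for Grin2b, -1682, -1491 and -1951 bp for Grin3a, 16116, 2545 and 10785 bp for Grin2c and -595, -690 and -649 bp for Grm6. Flipping the signs of the 3 arm differences in every way (exact permutation test, two-sided) gave p = 0.25 for each, the smallest possible, with an adjusted p of 1 over 11403 H4K8ac or 6155 H3K27me3 genes, so no gene could pass.

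None of these 4 had the same direction in 3 arms when the bases of the gene body under any peak were taken instead. Grin3a was lower by symbol and also by gene body in SIT (0.845 against 0.993%) and left (0 against 0.81%), and had no covered base in either right list. Grin2b then had 12, 8.42 and 7.21% of its body covered in exercised SIT, left and right and 7.06, 14.1 and 10.4% in sedentary mice, which is higher in SIT and lower in both separate arms. Grin2c was higher in SIT and left (79.3 against 67.6%, 74.7 against 63.2%) and lower in right (60.6 against 71.1%). Grm6 was lower in SIT and left and higher in right (27.2 against 25.5%). On that measure only Grm8 went one way, with less H4K8ac in exercised mice in 3 arms (0.391 against 1.35%, 0 against 1.32% and 0.165 against 0.19%), 1 of 32 members where 6.16% of genes did. More H4K8ac was seen in 0 of 32 (1.36%), and more or less H3K27me3 in 0 of 9 (1.18 and 3.02%). In the right arm, whole H4K8ac lists held 0.437 times as many bases in exercised as in sedentary mice. Relative to list size, Grm8 therefore turned in that arm, and kept its direction in SIT and left.

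Positions were compared peak by peak. In SIT 36.5% of 301 exercised H4K8ac peaks of the members overlapped a sedentary peak by at least 1 bp (95% Wilson interval 31.3 to 42.1, counting error over peaks only), in the left arm 68.9% of 106 (59.5 to 76.9) and in the right arm 55.3% of 114 (46.1 to 64.1). Whole lists gave 43.9, 73.1 and 68%. For H3K27me3 the shares were 46.2% of 91 (36.3 to 56.3), 62.3% of 69 (50.5 to 72.8) and 91.7% of 36 (78.2 to 97.1), with 37.2, 61.3 and 94.7% for whole lists. In the other direction, 50.8, 19.3 and 30.6% of the sedentary H4K8ac peaks in SIT, left and right overlapped an exercised one (59, 25.1 and 35.6% in whole lists). For H3K27me3 it was 97.7% of 44, 87.7% of 57 and 26.2% of 80 (98.1, 82.1 and 31.6% in whole lists). At 50% reciprocal overlap, the shares of exercised peaks fell to 15, 34 and 26.3% for H4K8ac and to 30.8, 47.8 and 27.8% for H3K27me3.

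Recurrence over lists was low for H4K8ac. Merged over the 6 lists, the members' H4K8ac peaks formed 625 regions, of which 24 (3.84%) were in all 6 lists and 381 (61%) in 1, where 5.99% of all merged H4K8ac regions were in all 6. The share of all merged regions found in 1 list is not given. Gria2 had 7 of the 24, Dlg2 and Grik2 5 each. Peaks joined by merging need not share a base, and 13 of these 24 regions had a base common to all 6 lists. H3K27me3 formed 92 regions, of which 16 (17.4%, against 16.7% of all) were in all 6, 9 of them at Grik1, and 15 of the 16 had a base in common. Regions present in all 3 lists of 1 condition and in none of the other were rare: 0 of 625 H4K8ac regions were exercised only (0.104% of all regions were), 2 were sedentary only (0.848%), 1 of 92 H3K27me3 regions was exercised only (0.125%) and 0 sedentary only (0.033%). The exercised-only region lay 9175 bp from the Grm8 start that the annotation assigns (chr6:28144354-28147495). The sedentary-only H4K8ac regions were both intergenic, at Grm3 (chr5:9910352-9912745, 185181 bp from the assigned start) and at Neto1, where the 3 peaks shared no base.

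Left and right hippocampi of sedentary mice shared 0.215 of the bases covered by members' H4K8ac peaks in either (Jaccard index), and 0.481 of those covered by H3K27me3, where whole lists gave 0.306 and 0.521. In exercised mice the values were 0.146 and 0.31, against 0.211 and 0.376. SIT and either separate arm shared 0.148 to 0.195 of H4K8ac bases and 0.256 to 0.57 of H3K27me3 bases. Between arms the members' H4K8ac was thus less shared than that of whole lists in 6 of 6 pairs of lists, and no test was made of it.

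Both marks were listed together at 5 members in exercised SIT, 2 in exercised left, 1 in exercised right and 2, 6 and 3 in the sedentary lists, which is 2.63 to 15.8% of the family where 2.94 to 10.8% of all protein-coding genes had both. At none of them did the peaks of the 2 marks overlap within a list pair, also when every peak over the gene body was included. The closest pair was 4.26 kb apart, at Grm4 in sedentary left.

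Genes that act beside the receptors were counted in the same way. Of 11 AMPA receptor partners, 3 to 9 had H4K8ac and 2 to 4 H3K27me3 in a list, with Nptxr, Olfm1 and Grip1 listed for H4K8ac in 6 of 6. Between conditions, of the partners with H4K8ac in either list of an arm, 1 of 9 was gained and 0 lost in SIT, 1 of 10 gained and 5 lost in the left arm and 0 of 5 gained and 2 lost in the right arm. Of 7 glutamate transporters, 2 to 6 had H4K8ac, with 3 of 6 gained in SIT (Slc17a6, Slc17a7 and Slc1a3), 3 of 5 lost on the left and 2 of 5 lost on the right. Among all listed protein-coding genes 28.2% were gained in SIT, and 52.1 and 36.6% were lost on the left and right. Slc17a7, the vesicular transporter of hippocampal principal cells, had H4K8ac in 4 lists and H3K27me3 in none, whereas Slc17a6 and Slc17a8, its relatives in other neurons, had H3K27me3 in 6 of 6.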

How the data were processed

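Nuclei of Emx1-tagged hippocampal neurons were profiled by CUT&RUN-seq for H4K8ac and H3K27me3. The authors checked reads with FastQC 0.11.9, aligned them with Bowtie2 2.4.1 to mm10 (GRCm38), called peaks with SEACR and annotated each peak to a single gene with ChIPseeker 1.8.6, as their methods and processing notes state. Some exercised H4K8ac libraries were left out by the authors, and how libraries were combined is not given in the sources used here. The deposited lists hold positions, annotation and gene symbols, without signal, counts or p-values, so depth and replicate spread are unknown and a longer list can reflect deeper sequencing. IgG samples were not analysed here.

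From the lists, 1 bp was added to each start. For each gene the number of peaks, the bases they covered and the gene body bases under any peak (GENCODE M21) were computed with Python 3.11.15, pandas 2.3.3 and numpy 2.4.6. Gains and losses were counted per arm without a test. Differences over the 3 arms were tested by exact enumeration of their signs (permutation test, two-sided), with Benjamini-Hochberg adjustment over all genes of the mark. Overlap needed at least 1 bp, with 95% Wilson intervals (statsmodels 0.14.6) that cover counting error only. The code was tested on simulated data. Background shares are over protein-coding genes listed or annotated. By rule, all members were described by class, and in full those that moved one way in 3 arms, those with both marks, those with the widest peak of a mark and 1 to 4 examples per class. Other genes were named only where a result turned on them. Alternatives were promoter peaks alone, no distal intergenic peaks, gene body overlap, the widest 50% of peaks, equal numbers of peaks, bases per Mb of list and 50% reciprocal overlap. The members and lists were chosen with earlier results of these data known.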

Additional observations from a re-analysis of the deposited data

Results flagged for a closer look

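The arms moved in opposite directions. Covered H4K8ac bases of the glutamate receptor genes in exercised over sedentary mice were 1.82 in SIT, 0.311 in the left arm and 0.497 in the right arm. For H3K27me3 the ratios were 1.75 in SIT, 1.29 in the left arm and 0.3 in the right arm. With 1 list per condition in an arm, the difference between arms was not tested, and the lists as a whole moved the same way. The authors left out exercised H4K8ac libraries, more of them in the separate isolations than in SIT, and the part of this in the difference was not tested.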

How the results depend on the processing

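No paired analysis was possible from the peak lists used here, because each list pools its samples and carries no replicate number, and for the same reason no replicate could be left out. With promoter peaks alone, H4K8ac was listed at 4 members in exercised left (12 with all peaks), 7 in exercised right (16), 5 in sedentary SIT (21), 14 in sedentary left (26) and 13 in sedentary right (22), and H3K27me3 at 9 in exercised SIT (14). With lists of equal length, H4K8ac was at 16 members in sedentary left. By gene body, H3K27me3 was at 9 in exercised SIT and 5 in sedentary left (10). H4K8ac gains in SIT went from 4 to 8 by gene body and 11 by promoter, and losses from 3 to 1 with the widest 50% of peaks and 0 by promoter. Losses in the left arm went from 14 to 7 (widest) and 4 (equal length), gains in the right arm from 3 to 5 (equal length) and 0 (promoter), and losses there from 9 to 5 under gene body, widest and equal length. H3K27me3 gains in SIT went from 7 to 4 without distal intergenic peaks, 1 by gene body, 4 at equal length and 3 by promoter, and losses from 0 to 1 at equal length. In the left arm gains went from 3 to 1 at equal length and by promoter, and losses from 0 to 1 at equal length. In the right arm gains went from 0 to 1 under widest, equal length and promoter, and losses from 2 to 1 (without distal, gene body, equal length) and 4 (widest). Members with more H4K8ac in 3 arms went from 0 to 2 per Mb of list (Grik4 and Dlg1), a scale on which no share over all genes is given. Those with fewer stayed at 2 per Mb, with Dlg2 in place of Grin2b, and went from 2 to 0 without distal peaks and 1 by gene body. For H3K27me3, more went from 1 to 0 by gene body and stayed at 1 per Mb, with Cacng2 in place of Grin2c, and fewer from 1 to 0 per Mb and by gene body. The use of gene body bases over arms, and of every peak over the gene body for both marks, was chosen after seeing the data. At 50% reciprocal overlap the exercised peaks shared with sedentary mice fell to 15, 34 and 26.3% for H4K8ac in SIT, left and right and to 30.8, 47.8 and 27.8% for H3K27me3, and with the widest peaks H4K8ac in the right arm gave 43.5%. Without distal peaks, members with both marks went from 5 to 1 in exercised SIT, 2 to 1 in exercised left, 2 to 1 in sedentary SIT and 3 to 1 in sedentary right. With every peak over the gene body they went from 1 to 2 in exercised right. Of 156 values under an alternative, 103 counted as unchanged. For overlap shares this meant staying within the Wilson interval, and for all other values a change of at most 1.5 times. The cause of the other changes was not tested.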
